A study of Danio rerio with 14 samples.

Results

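The genes described here are those of goblet cells, the mucus-secreting cells of the gut lining, and of the mucins they release. They were chosen by symbol: agr2, muc2.1, muc5.1, muc5.2, muc5.3, sytl2b, spdef, galnt12, fer1l6 and stard10. Of these 10 symbols, 9 were matched to a row among the 32520 genes of the count table, and all 9 were among the 18619 genes tested. The symbol muc2.1 was not matched and is not analysed here. Of the 9, muc5.2 passed the filter on low counts only through wild-type M replicates 1, 2 and 4. Muc5.1 passed it through wild-type libraries, since of the transgenic ones only ASIP H replicate 16 had counts high enough for the filter.

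Poly-A RNA of zebrafish intestine was sequenced in 14 libraries. The transgenic fish carried Tg(Xla.Eef1a1:Cau.Asip1)iim04. Read by the usual rules for such names, this is the agouti gene Asip1 of goldfish behind the frog Eef1a1 promoter, which is active in most cells. The wild-type fish were labelled Tubingen. The strain of the transgenic fish is not labelled, so strain and transgene cannot be told apart. Each title ends in M or H, letters that the labels do not explain, which gives 4 groups: WT M (replicates 1 to 4), WT H (5 to 8), ASIP M (9, 10 and 11) and ASIP H (13, 14 and 16). Age, sex and diet are not given in the sources used here, and all libraries share the tissue and the extraction. Agouti signalling protein is an antagonist of melanocortin receptors, and the series asks how its overproduction relates to gut barrier and transport.

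Goblet cells store mucins in granules and release them to form the mucus gel that covers the epithelium. Gel-forming mucins are very large proteins that are folded in the endoplasmic reticulum, densely decorated with O-linked sugars in the Golgi and packed into granules. In mice, the transcription factor Spdef drives goblet cell maturation, and the disulfide isomerase Agr2 is needed to make intestinal mucin. In zebrafish, agr2 is a widely used marker of intestinal goblet cells.

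Total counts were between 9847910 and 14091791 per library. WT H replicates 6 and 7 stood apart from the others. Summed over 21 enterocyte brush border genes, they held 296.5 and 2538 CPM (read counts relative to the library's total, scaled with TMM), against 12809 to 35495 CPM in the other 12 libraries. Summed over 18 general epithelial genes they held 2630 and 5406 CPM, against 7028 to 12159, and epcam alone held 1566 CPM in replicate 6. By the mean log2 CPM of these 18 genes, replicate 6 was the lowest at 5.29. Replicate 7 was the highest by that mean, at 6.64, against 5.77 to 6.637 in the other 12 libraries. Over 18 ovary and oocyte genes, WT H replicate 6 held 19168 CPM and WT H replicate 7 held 2265, against 915 in WT H replicate 8, 404 in ASIP H replicate 13, and at most 8.66 in the other 10, with 5 to 14 of the 18 genes at 0 counts in each WT M library. In WT H replicate 6, 3 of the 21 brush border genes had 0 counts. Results that rest on WT H are given with and without these libraries. Fewer cells of a type and less RNA per cell cannot be told apart in such bulk samples.

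No gene of the set passed the test for genotype in the fit over all libraries. Averaged over M and H, 0 of 9 had an adjusted p under 0.05 (edgeR quasi-likelihood test, Benjamini-Hochberg over all 18619 genes), where 4.21% of all genes tested did. Before adjustment, 6 of the 9 had p under 0.05, against 19.1% of all genes. The 9 genes and the gene lists below were chosen with earlier results of these data known. An excess over all genes in such counts is therefore a description and adds no support. Muc5.1 and muc5.2 were among the 6, and their high wild-type counts also let them into the test, a further reason why they add no support. The log2 fold change, ASIP over WT, was above 0 for 5 of the 9 and below 0 for 4, with a median of 0.19, against a median of -0.11 over all genes tested. DESeq2 called 4 of the 9 (9.52% of all genes), limma-voom with sample quality weights called 4 (13.2% of all genes), and the edgeR fit without WT H replicates 6 and 7 called 3 (7.88% of all genes). Muc5.1 was among the 4 called by DESeq2 and adds no support there. Within M, 0.956% of all genes were called and none of the 9, with 3 having p under 0.05 before adjustment against 7.97% of all genes, while DESeq2 called 0 and limma-voom 3 of the 9 (8.35% of all genes). Muc5.1 and muc5.2, which entered through wild-type libraries, were among both of these counts of 3 and add no support to either. Within H, 1.15% were called and none of the 9, with 4 having p under 0.05 before adjustment against 24.7% of all genes. Of the 9, only sytl2b, a gene of the granule docking family, had no overlap in TMM-scaled CPM between genotypes over all 14 libraries. On a scale without TMM it did overlap, as given below.

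**Figure D1:**
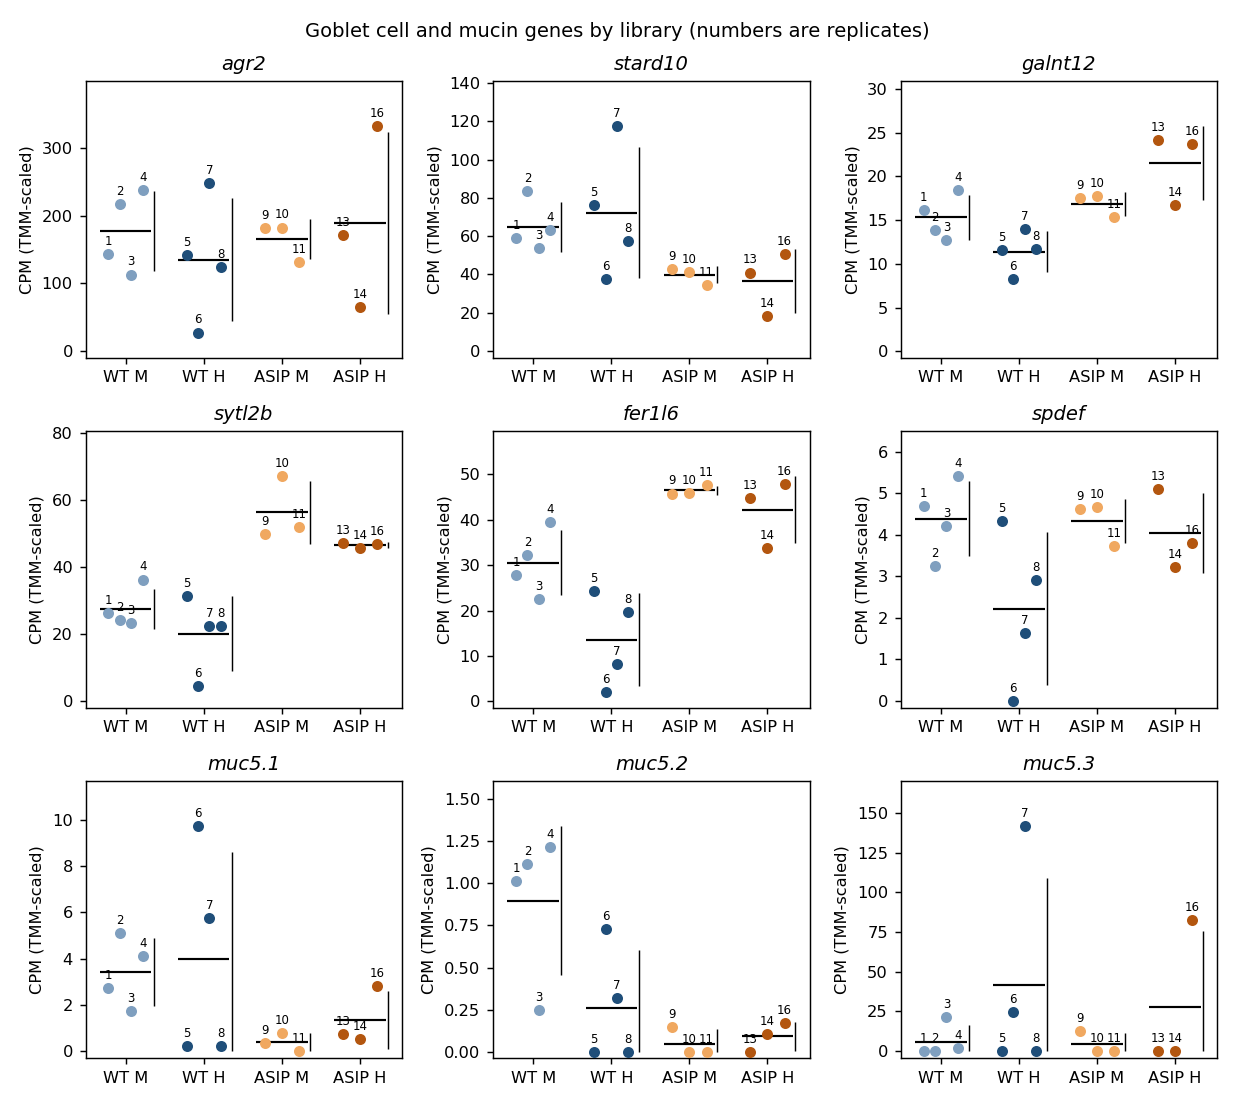
CPM on TMM-scaled totals (y axis) of the 9 genes in each library, by group (x axis). Points are libraries with their replicate numbers, horizontal lines are group means and vertical lines are ± 1 SD, ended at 0. All 6 ASIP points of sytl2b lie above all 8 WT points, and muc5.3 has 0 or 1 count in 8 libraries and reaches 142 CPM in WT H replicate 7.

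Levels were compared on the scale that corrects for gene length (the deposited FPKM, reads scaled by gene length and by the library's total). By median, agr2 was the highest of the set and the gel-forming mucins muc5.1, muc5.2 and muc5.3 the lowest. Muc2.1, which was not matched, has no place in this order. The median FPKM over the 14 libraries was 63.1 for agr2, 31.4 for stard10, 10.03 for galnt12, 5.98 for sytl2b, 5.73 for fer1l6 and 3.84 for spdef. It was 0.0726 for muc5.1, 0.00813 for muc5.2 and 0.00227 for muc5.3. Agr2 was above stard10 in 13 of 14 libraries, and galnt12 came next after these 2 in all 14. The neighbours sytl2b and fer1l6 did not differ beyond their spread, with sytl2b above fer1l6 in 6 of 14 libraries. At the other end, muc5.2 was above muc5.3 in 3 of 14. The rank of muc5.3 ran from 4 to 9 over the libraries, and it reached 12.9 FPKM in WT H replicate 7. The ranges over libraries overlapped for every pair of neighbours in this order.

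**Figure D2:**
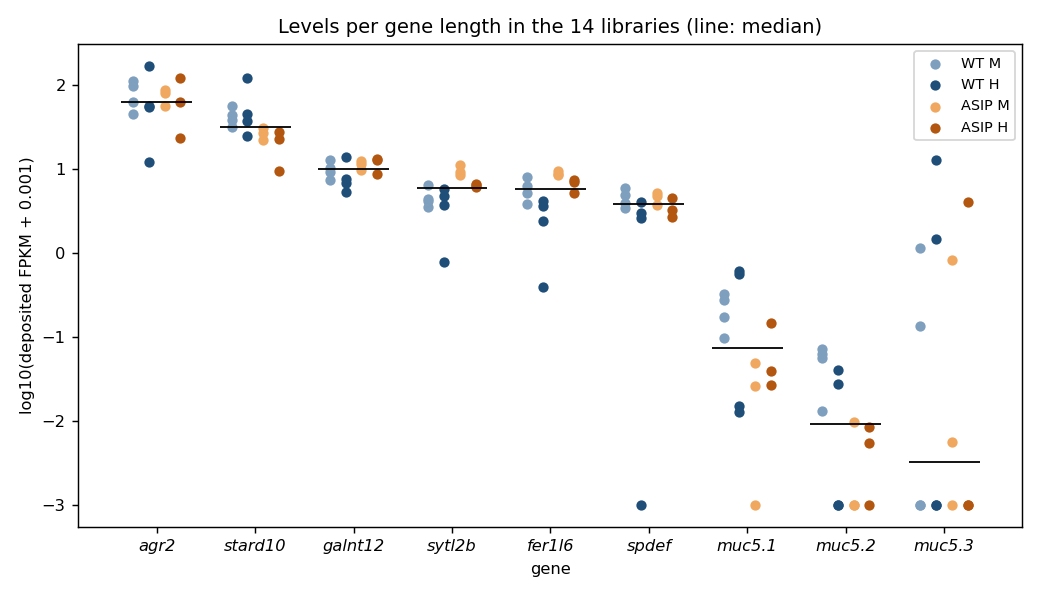
Deposited FPKM of the 9 genes, plotted as log10(FPKM + 0.001) on the y axis, with 1 point per library coloured by group and a line at the median of all 14 libraries. Agr2 leads with a median of 63.1 FPKM, and muc5.3 spans the widest range.

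The synaptotagmin-like gene sytl2b (ENSDARG00000075436, on chromosome 15 of GRCz12tu) encodes a protein of the family that, in mammals, docks Rab27-bearing secretory granules at the plasma membrane. It had 26.2, 24.2, 23.4 and 36.3 CPM in WT M replicates 1 to 4 and 49.99, 67.2 and 51.9 CPM in ASIP M replicates 9, 10 and 11. In WT H replicates 5 to 8 it had 31.3, 4.63, 22.4 and 22.3 CPM, and in ASIP H replicates 13, 14 and 16 it had 47.3, 45.7 and 46.9 CPM. In TMM-scaled CPM every transgenic library lay above every wild-type library, a separation shown in that direction by 2.25% of all genes tested. On the deposited FPKM the genotypes overlapped, with 6.53 in WT M replicate 4 against 6.14 and 6.497 in ASIP H replicates 14 and 16. Within M and within H the FPKM ranges stayed apart. The means were 51.5 ± 8.02 CPM in ASIP (SD, n = 6) and 23.9 ± 9.18 in WT (SD, n = 8). The log2 fold change was 1.12 (SE 0.31) with an adjusted p of 0.0666 in edgeR.

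This adjusted p for sytl2b fell under the threshold in several alternatives. It was 0.00408 without WT H replicates 6 and 7, with a log2 fold change of 0.93 (SE 0.15), and 0.00214 without WT H replicate 6 alone. It was 0.0453 without WT H replicate 5, with a log2 fold change of 1.26. By DESeq2 it was 0.0102, and by limma-voom with sample weights it was 0.00077. Within M the log2 fold change of sytl2b was 1.03 (SE 0.44, adjusted p = 0.537 in edgeR). Fitted on the M libraries alone, where 4.32% of all genes were called, it was again 1.03 (SE 0.20) with an adjusted p of 0.0304, and without WT H replicates 6 and 7, where 3.86% were called, the within-M adjusted p was 0.014. Within H it was 1.21 (SE 0.44, adjusted p = 0.15 in edgeR).

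The ferlin gene fer1l6 (ENSDARG00000019316, chromosome 9) encodes a membrane protein with C2 domains. It had 27.9, 32.2, 22.5 and 39.5 CPM in WT M replicates 1 to 4 and 45.8, 45.9 and 47.7 CPM in ASIP M. In WT H replicates 5 to 8 it had 24.4, 2.09, 8.31 and 19.6 CPM, and in ASIP H 44.8, 33.9 and 48.0 CPM. ASIP lay above WT within M and within H without overlap, a separation shown by 9.83% of all genes within M and by 7.64% within H. Over all libraries the genotypes overlapped, since ASIP H replicate 14 was below WT M replicate 4. The log2 fold change of fer1l6 was 1.12 (SE 0.39, adjusted p = 0.147 in edgeR) over M and H, 0.61 within M and 1.63 (SE 0.56, adjusted p = 0.139) within H. Without WT H replicates 6 and 7 it was 0.78 (SE 0.16) with an adjusted p of 0.0123 over M and H, and 0.97 (SE 0.24) with an adjusted p of 0.0805 within H.

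The 2 lowest values of fer1l6 were those of WT H replicates 6 and 7, the libraries with the lowest summed CPM of brush border and general epithelial genes. The part of these differences in the result was not tested beyond the fit without them. Set against the summed general epithelium list in the same library, fer1l6 was 0.0794% to 0.382% in WT and 0.286% to 0.535% in ASIP. On that scale sytl2b was 0.176% to 0.415% in WT and 0.386% to 0.783% in ASIP, so both overlapped between genotypes. On this scale the overlap of sytl2b came from WT H replicate 7 alone, since the next highest WT value was 0.351%, in WT M replicate 4. For fer1l6 the overlap remained without WT H replicates 6 and 7, with 0.382% in WT M replicate 4 and 0.286% in ASIP H replicate 14. Across the 14 libraries the log2 CPM of sytl2b and fer1l6 had a Pearson r of 0.933, and 0.873 without WT H replicates 6 and 7. These values are a description of libraries that share depth, tissue makeup and group.

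The gene galnt12 (ENSDARG00000055490, chromosome 19) encodes a polypeptide N-acetylgalactosaminyltransferase, an enzyme family that attaches the first sugar of O-linked chains. In WT H replicates 5 to 8 it had 11.6, 8.26, 13.95 and 11.7 CPM, and in ASIP H 24.2, 16.7 and 23.7 CPM. These did not overlap, as was seen in this direction for 7.64% of all genes. On the deposited FPKM they did overlap, with 13.96 in WT H replicate 7 against 13.2, 8.66 and 12.7 in ASIP H. In the M libraries the groups overlapped, at 16.2, 13.8, 12.8 and 18.5 CPM in WT M and 17.5, 17.8 and 15.3 CPM in ASIP M. The log2 fold change of galnt12 was 0.92 (SE 0.25, adjusted p = 0.0948 in edgeR) within H and 0.14 within M. The interaction, which tests the difference between these effects, was not called for this gene or any other of the 9. Averaged over M and H, the log2 fold change of galnt12 was 0.53 (SE 0.18, adjusted p = 0.13), and it was 0.52 with an adjusted p of 0.0488 without WT H replicates 6 and 7.

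The gene stard10 (ENSDARG00000097718, chromosome 15), whose mammalian counterpart encodes a phospholipid transfer protein, went the other way. It had 59.096, 83.4, 53.7 and 63.1 CPM in WT M replicates 1 to 4 and 43.1, 41.4 and 34.7 CPM in ASIP M, without overlap, as was seen in this direction for 9.32% of all genes. In WT H replicates 5 to 8 it had 76.3, 37.5, 118 and 57.6 CPM, and in ASIP H 41.0, 18.1 and 50.7 CPM, so WT H replicate 6 lay inside the ASIP range. The log2 fold change of stard10 over M and H was -0.84 (SE 0.28, adjusted p = 0.135 in edgeR). Without WT H replicate 6 alone it was -0.94, with an adjusted p of 0.0368, and without replicates 6 and 7 it was -0.78 (adjusted p = 0.0692). Without those 2 libraries every ASIP value of stard10 was under every WT value, which held for 3.37% of all genes. DESeq2 gave an adjusted p of 0.0457 and limma-voom one of 0.0344.

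**Figure D3:**
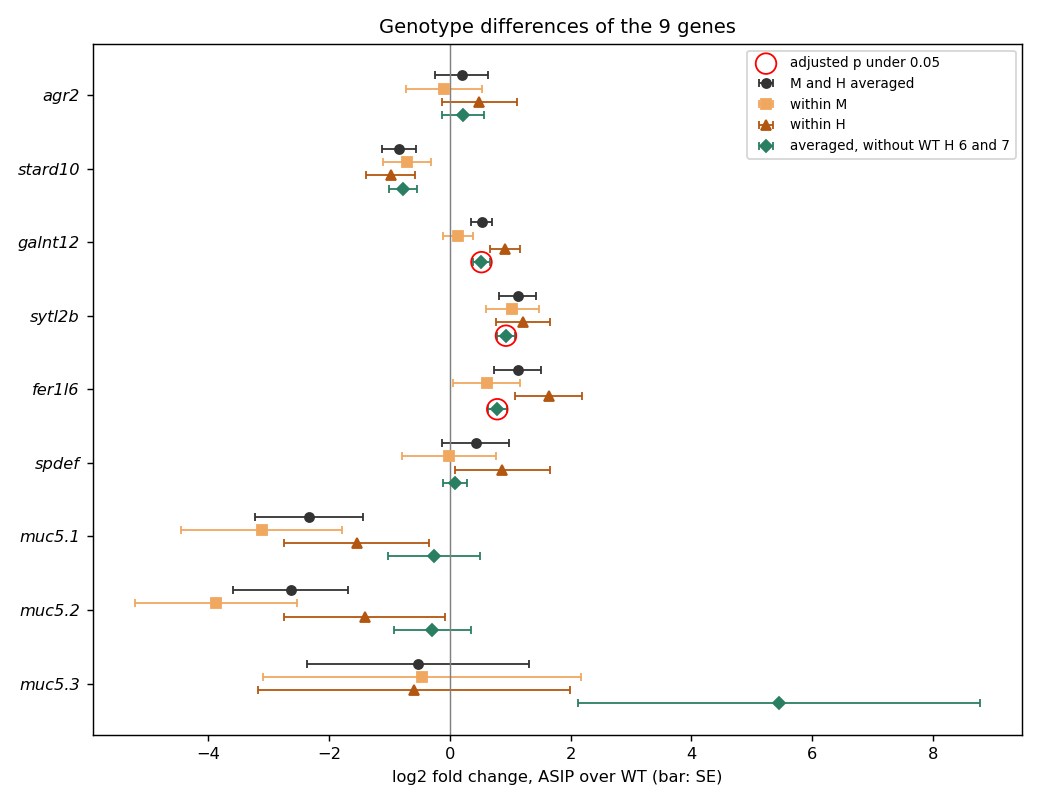
Log2 fold changes, ASIP over WT (x axis), of the 9 genes (y axis), with SE bars, from edgeR over all libraries (M and H averaged, within M, within H) and without WT H replicates 6 and 7. Red circles mark an adjusted p under 0.05, which only sytl2b, fer1l6 and galnt12 reach, and only without those 2 libraries.

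The disulfide isomerase gene agr2 (ENSDARG00000070480, chromosome 19) varied widely within groups and did not separate the genotypes. It had 143, 217, 113 and 238 CPM in WT M replicates 1 to 4 and 182, 183 and 132 CPM in ASIP M. In WT H replicates 5 to 8 it had 142, 27.2, 248 and 124 CPM, and in ASIP H 171, 65.4 and 333 CPM. WT H replicate 6 and ASIP H replicate 14 were the lowest, and ASIP H replicate 16 the highest, 12.2 times WT H replicate 6. The log2 fold change of agr2 was 0.19 (SE 0.44, adjusted p = 0.829 in edgeR) over M and H and changed sign, to -0.15, without ASIP H replicate 16.

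The genes whose log2 CPM was most like that of agr2 over the 14 libraries were MYB, which encodes a transcription factor, s100u, which encodes an S100 calcium-binding protein, phf11, ENSDARG00000097513, which has no symbol in the reference table, and tnfrsf11a, which encodes the receptor of the cytokine RANKL in mammals. Their Pearson r with agr2 was 0.961, 0.947, 0.938, 0.938 and 0.936, and Spearman's rho was 0.916, 0.842, 0.908, 0.846 and 0.846. They were chosen for their r among 18618 genes, so no p is given. Without WT H replicates 6 and 7 only ENSDARG00000097513 stayed among the highest 5, at r = 0.92, beside NAP1L4, GFPT1, OTOGL and SLC7A10. MYB, s100u, phf11 and tnfrsf11a then ranked 8, 20, 13 and 43. For agr2 itself, replicate 6 was low and replicate 7 high. Between agr2 and the other genes of the set, r over 14 libraries ran from -0.0275 for muc5.2 to 0.722 for spdef, and without WT H replicates 6 and 7 from 0.157 for sytl2b to 0.569 for stard10, with spdef at 0.362 and muc5.2 at 0.313.

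The transcription factor gene spdef (ENSDARG00000029930, chromosome 6) was low in every library. It had 65, 35, 51 and 58 counts in WT M replicates 1 to 4, 63, 60 and 44 in ASIP M and 56, 31 and 45 in ASIP H. In WT H replicates 5 to 8 it had 41, 0, 26 and 39 counts. The 0 in WT H replicate 6 allows up to 0.272 CPM, taken as 3 counts and covering counting error only, against 1.65 to 5.41 CPM in the other 13 libraries. The mean was 4.39 ± 0.911 CPM in WT M (SD, n = 4) and 4.34 ± 0.535 in ASIP M (SD, n = 3). The log2 fold change of spdef was 0.43 (SE 0.55, adjusted p = 0.686 in edgeR) over M and H and 0.09 without WT H replicates 6 and 7.

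The mucin genes muc5.1 (ENSDARG00000070331) and muc5.2 (ENSDARG00000058556) encode gel-forming mucins and stand near each other and muc2.1 on chromosome 25 in the RefSeq table of GRCz12tu. Such genes have long repeats and related copies, so the authors' counting could split reads between them, and their counts are uncertain in that respect. Muc5.1 had 38, 55, 21 and 44 counts in WT M replicates 1 to 4 and 5, 10 and 0 in ASIP M. It had 2, 107, 91 and 3 counts in WT H replicates 5 to 8 and 8, 5 and 33 in ASIP H. Within M the genotypes did not overlap, at 1.73 to 5.102 CPM in WT and 0 to 0.777 CPM in ASIP, as was seen in this direction for 9.32% of all genes. Within H the WT libraries held both the highest and the lowest values, so that ASIP H lay between them.

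For muc5.1 the ASIP M libraries together held 15 counts against 158 in WT M, a ratio per scaled total of 0.118 with an exact 95% interval of 0.0643 to 0.200, which covers counting error only. The fitted log2 fold change within M was -3.12 (SE 1.34, adjusted p = 0.54 in edgeR). Fitted on the M libraries alone it was -3.11 with an adjusted p of 0.077, and limma-voom gave -3.24 with 0.0427. Over M and H the log2 fold change of muc5.1 was -2.33 (SE 0.90, adjusted p = 0.189), and DESeq2 gave -2.38 with 0.0439. Without WT H replicates 6 and 7 it was -0.26 (adjusted p = 0.889). Muc5.1 entered the tests through wild-type libraries. The separation within M, the interval and these adjusted p-values therefore add no support to its being lower in ASIP.

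Muc5.2 had 60 counts in all 14 libraries. It had 14, 12, 3 and 13 counts in WT M replicates 1 to 4 and 2, 0 and 0 in ASIP M, again without overlap in CPM (9.32% of all genes). In WT H replicates 5 to 8 it had 0, 8, 5 and 0 counts, and in ASIP H 0, 1 and 2. The ratio of ASIP H to WT H, from 3 and 13 counts, was 0.354, and its exact 95% interval of 0.0647 to 1.29 includes equality. Since muc5.2 was tested only because of its WT M counts, its difference within M is given as a description, with no test.

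**Figure D4:**
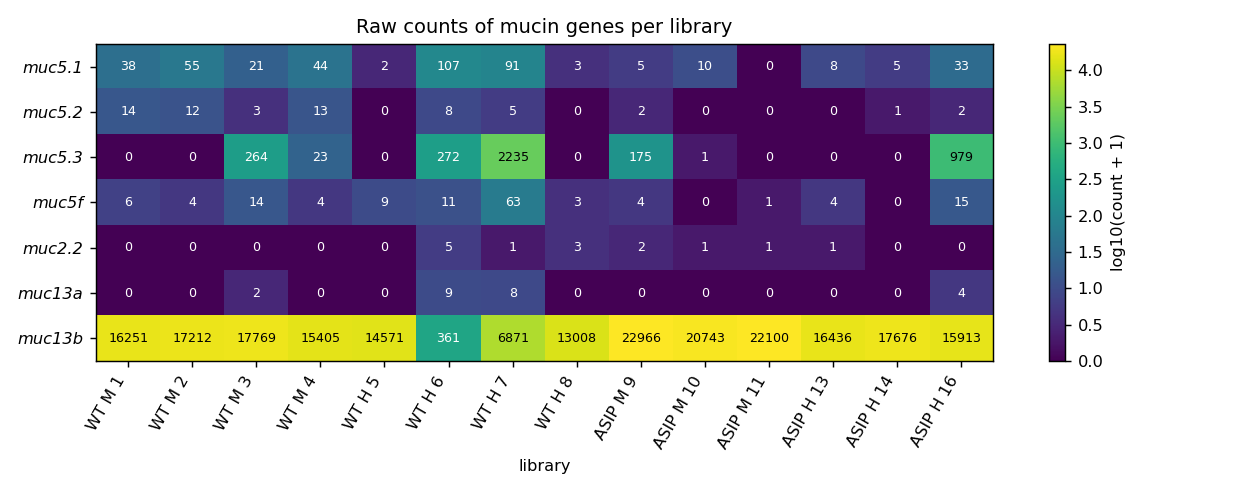
Raw counts of mucin genes (rows) in each library (columns), printed in each cell and coloured by log10(count + 1). Muc5.3 is above 100 counts in 5 libraries spread over all 4 groups, while muc13b is at least 6871 in every library except WT H replicate 6, which has 361.

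The mucin gene muc5.3 (ENSDARG00000099470) was near silent in most libraries and high in a few, in every group. It had 0, 0, 264 and 23 counts in WT M replicates 1 to 4 and 175, 1 and 0 in ASIP M. It had 0, 272, 2235 and 0 counts in WT H replicates 5 to 8 and 0, 0 and 979 in ASIP H. A count of 0 allows up to 0.317 CPM at these depths, against 142 CPM in WT H replicate 7 and 83.0 CPM in ASIP H replicate 16. The spread within groups exceeded any difference between them: the log2 fold change of muc5.3 over M and H was -0.53 (SE 1.84, adjusted p = 0.891 in edgeR), and it was 5.45 (adjusted p = 0.384) without WT H replicates 6 and 7, a value that depends on the prior count because the other WT H libraries had 0 counts. WT M replicate 3 held 92.0% of the WT M counts and WT H replicate 7 held 89.2% of the WT H counts.

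The genes most like muc5.3 over the 14 libraries, looked up after its values were seen, were apnl, krt1-19d, mslna, zgc:165423 and anxa1b, with Pearson r of log2 CPM of 0.974, 0.973, 0.962, 0.951 and 0.951 and Spearman's rho of 0.926, 0.746, 0.87, 0.907 and 0.895. The next was anxa1c, an annexin gene and a marker on the list of skin and pharynx epithelium, with r = 0.946, and it was first without WT H replicates 6 and 7, at 0.988. Anxa1c had 0, 0, 17 and 3 counts in WT M replicates 1 to 4, 0, 62, 127 and 0 in WT H replicates 5 to 8, 8, 0 and 0 in ASIP M, and 0, 0 and 16 in ASIP H. Its counts were above 10 in WT M replicate 3, WT H replicates 6 and 7 and ASIP H replicate 16, all of which also had 264 or more counts of muc5.3. The basal epidermal marker tp63 had 131, 60 and 19 counts in WT H replicates 6 and 7 and ASIP H replicate 16, and at most 10 in each other library. Its highest count was in WT H replicate 6, the library with the most ovary and oocyte RNA. In WT M replicate 3 and ASIP M replicate 9, with 264 and 175 counts of muc5.3, tp63 had 7 and 5 counts. The keratin gene krt5, named after its values were seen, had 398 counts in ASIP M replicate 9. It had 402 in ASIP H replicate 16 and 195 in WT H replicate 7. In WT M replicate 3 and WT H replicate 6 krt5 had 103 and 66 counts, and in each other library 18 to 103. The whole list of 16 skin and pharynx genes summed to 1379 to 2337 CPM in WT M, 188 to 1438 in WT H, 1524 to 1830 in ASIP M and 1277 to 2147 in ASIP H, with the lowest sums in WT H replicates 6 and 7. Its mean log2 CPM, in which each gene counts alike, was 1.98, 1.70, 2.03 and 2.33 in WT M replicates 1 to 4 and 2.12, 1.66 and 1.53 in ASIP M. It was 1.83, 1.68, 2.25 and 1.396 in WT H replicates 5 to 8 and 1.69, 1.30 and 2.60 in ASIP H. By this mean the highest library of WT H, ASIP M and ASIP H was also the one with the most muc5.3 counts. In WT M it was replicate 4, which had the second most. The list holds anxa1c, named above for its likeness to muc5.3, and tp63, so this match is in part built in. The mean without these genes was not computed. The part of such cells in the muc5.3 counts was not tested.

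Of the other mucins, muc5f, muc2.2, muc13a and muc13b were matched. Muc13b, of the membrane-bound mucin 13 type, was by far the most abundant per length, with a median of 618 FPKM. It had 15405 to 17769 counts in WT M, 20743 to 22966 in ASIP M and 15913 to 17676 in ASIP H. In WT H replicates 5 to 8 it had 14571, 361, 6871 and 13008 counts, low in the same libraries as the brush border genes. Its log2 fold change was 0.67 (SE 0.54, adjusted p = 0.497 in edgeR), and 0.31 (adjusted p = 0.319) without WT H replicates 6 and 7. Muc5f had 138 counts in all, 63 of them in WT H replicate 7, and stood at -1.78 on the log2 scale (adjusted p = 0.267). Muc2.2 and muc13a, with 14 and 23 counts in all, were under the filter.

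The letters were not separated by any gene of the set. For H against M averaged over genotypes, 0 of 9 were called, with adjusted p from 0.683 to 0.99 in edgeR. None had p under 0.05 before adjustment (7.78% of all genes), and 0% of all genes were called, although DESeq2 called 344 genes, none of the 9 among them, and limma-voom none of the 9. For the interaction of genotype and letter, 0 of 9 were called, with adjusted p from 0.667 to 0.999 and 1 gene under 0.05 before adjustment (6.9% of all genes), and again 0% of all genes, against 24 by DESeq2. DESeq2 and limma-voom called none of the 9. All 9 genes overlapped between H and M in CPM. Over the 7 H and the 7 M libraries, agr2 ran from 27.2 to 333 CPM and from 113 to 238 CPM, and spdef from 0 to 5.11 CPM and from 3.25 to 5.41 CPM, the lowest H value of both being that of WT H replicate 6. For sytl2b the SD was 16.2 CPM in H and 16.9 in M. Within H, DESeq2 called galnt12 and fer1l6 (11.5% of all genes called), and limma-voom called galnt12, fer1l6 and sytl2b (4.84%). Fitted in edgeR on the H libraries alone, 0 of the 8 genes of the set that were tested were called, with a smallest adjusted p of 0.497.

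Around the set, 2 enzymes of mucin glycosylation were higher with the transgene and 0 lower, among 41 tested of 47 matched genes, a share near the 4.21% of all genes called. Of the 41, 29 had a log2 fold change above 0, with a median of 0.27 against -0.11 over all genes tested. The first was galnt11, of the same enzyme family as galnt12, which rose in both letters. It had 17.2, 22.4, 16.9 and 18.1 CPM in WT M replicates 1 to 4, 24.8, 28.9, 19.3 and 27.6 CPM in WT H replicates 5 to 8, 65.9, 51.7 and 51.5 CPM in ASIP M, and 58.4, 49.8 and 46.6 CPM in ASIP H. Every ASIP library of galnt11 lay above every WT library in CPM, as for 2.25% of all genes. Its log2 fold change was 1.32 (SE 0.15, adjusted p = 0.000392 in edgeR) over M and H, 1.596 (adjusted p = 0.00396) within M and 1.04 (adjusted p = 0.0414) within H. The second was GALNT8 (ENSDARG00000011869), a low gene with 0 to 3 counts in each WT library and 6 to 23 in each ASIP library. It passed the filter on low counts only through ASIP libraries, so its difference is given as a description, although it is counted above. Its human-style symbol is shared by 2 other genes, so reads may be split between copies.

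Without WT H replicates 6 and 7, 5 glycosylation genes rose, GALNT8 (ENSDARG00000011869) among them, and 1 fell among the 41, where 7.88% of all genes were called. The median was 0.39 against 0.0035 over all genes. The additional genes that rose were galnt1, galnt2 and galnt4, with log2 fold changes of 0.46 (SE 0.10, adjusted p = 0.0182), 0.55 (SE 0.14, adjusted p = 0.0346) and 0.53 (SE 0.10, adjusted p = 0.0105). The gene that fell was galnt7, at -0.54 (SE 0.11) with an adjusted p of 0.0159. These 4 were named after their values were seen.

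**Figure D5:**
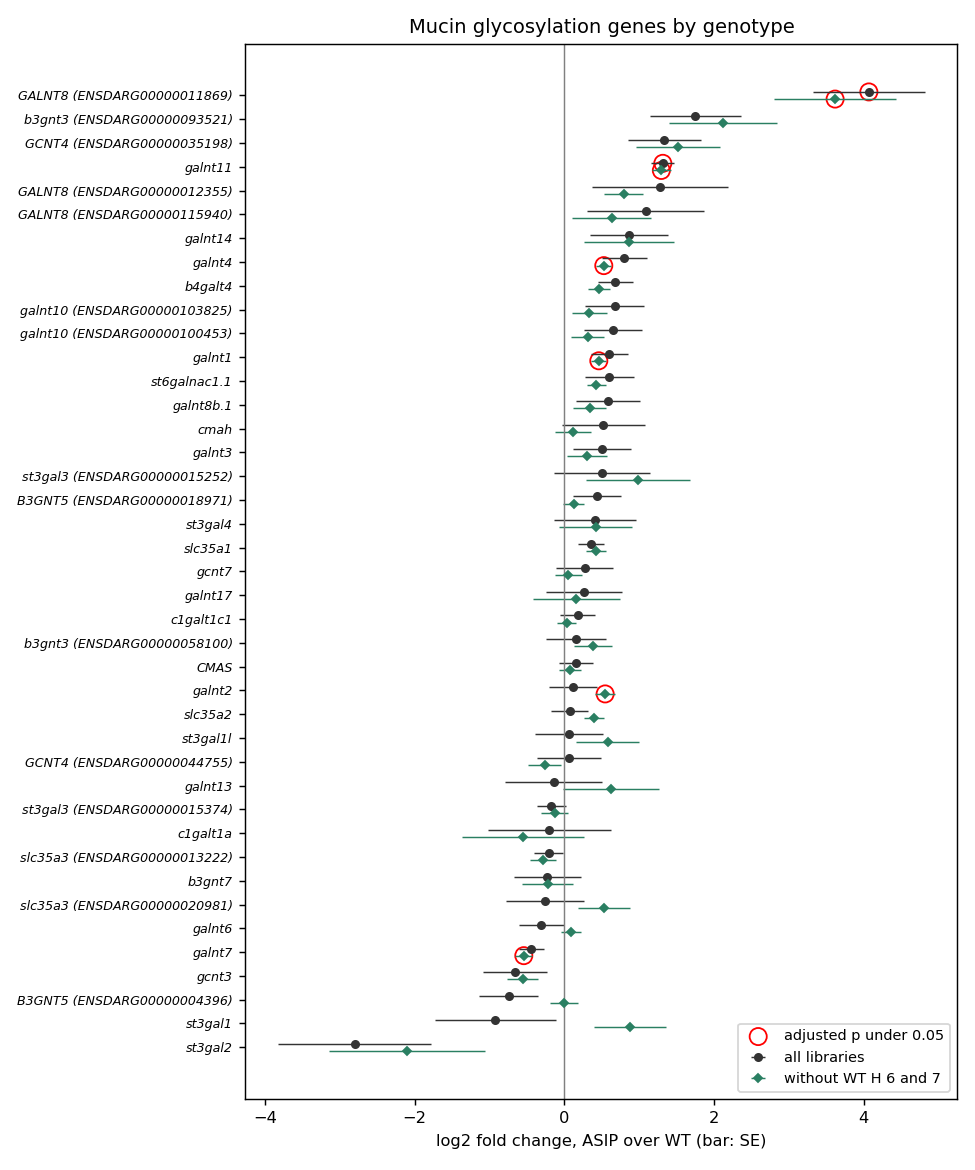
Log2 fold changes, ASIP over WT averaged over M and H (x axis), of the 41 tested mucin glycosylation genes (y axis), with SE bars, for all libraries and without WT H replicates 6 and 7. Red circles mark an adjusted p under 0.05: galnt11 and the gene listed as GALNT8 (ENSDARG00000011869) in both fits, and galnt1, galnt2, galnt4 and galnt7 only in the second.

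Of 13 tested genes of the mucus layer, 2 rose and 1 fell, against 4.21% of all genes called. The lectin gene itln1 (ENSDARG00000095082) had 0 to 2 counts in each WT library and 35 to 412 in each ASIP library. It passed the filter on low counts only through ASIP libraries, so its difference is given as a description, although it is 1 of the 2 counted. It belongs to an expanded family whose copies may share reads. The gene clca5.2, of a family of regulators of calcium-activated chloride channels, rose from 2.47 ± 1.38 CPM in WT (SD, n = 8) to 8.90 ± 3.997 in ASIP (SD, n = 6), which gave 1.82 on the log2 scale (SE 0.46) at an adjusted p of 0.0424. The transglutaminase gene tgm5l fell, with a log2 value of -4.59 (SE 1.12) at an adjusted p of 0.0363. This call was lost without WT H replicates 6 and 7, at -3.04 with an adjusted p of 0.0976.

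Of 29 tested genes of secretory granules and exocytosis, none passed, 8 had a log2 fold change above 0, and the median was -0.40. The smallest p-values belonged to SYT7 (ENSDARG00000078060), at -2.98 (SE 0.81, adjusted p = 0.0605), and to sytl1, a relative of sytl2b, at 0.80 (SE 0.23, adjusted p = 0.0707). Without WT H replicates 6 and 7, 2 rose and 3 fell among 28, against 7.88% of all genes called, and the median was -0.029. Among those that rose was sytl1, at 0.63 (adjusted p = 0.0251 in edgeR), the same direction as sytl2b. SYT7 (ENSDARG00000078060) was among those that fell, at -3.25 (adjusted p = 0.0459). So was sytl2a, the paralog of sytl2b, named after its values were seen. It had 5.35, 3.804, 5.36 and 7.56 CPM in WT M replicates 1 to 4 and 2.28, 2.72 and 2.62 CPM in ASIP M. In WT H replicates 5 to 8 it had 11.1, 0.454, 3.99 and 5.17 CPM, and in ASIP H 1.004, 0.625 and 2.46 CPM. Its log2 fold change without WT H replicates 6 and 7 was -1.82 (SE 0.34, adjusted p = 0.00854), opposite in sign to that of sytl2b.

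Of 30 tested genes of folding in the endoplasmic reticulum and goblet cell stress, none passed, 9 had a log2 fold change above 0, and the median was -0.27. The smallest p belonged to ern2, whose mammalian counterpart encodes the IRE1 stress sensor of mucous epithelia. It had 6.03 to 10.9 CPM in WT M, 2.45 to 7.82 CPM in WT H, 13.5 to 14.8 CPM in ASIP M and 10.1 to 12.0 CPM in ASIP H. In TMM-scaled CPM the genotypes did not overlap within M or within H. Such a separation was seen in this direction for 9.83% of all genes within M and 7.64% within H. On a scale without TMM they overlapped within H. WT H replicate 7 had 88 counts of ern2 in a total of 10064013, and ASIP H replicate 14 had 97 in 11792225. The log2 fold change of ern2 was 0.92 (SE 0.25, adjusted p = 0.056 in edgeR). It was 0.78 with an adjusted p of 0.0221 without WT H replicates 6 and 7. Next was ern1, the broadly expressed IRE1 gene, at 0.95 (adjusted p = 0.125).

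Of 34 tested transcription factors of the secretory lineage and Notch genes, 1 rose and 1 fell, a share near the 4.21% of all genes called. Of the 34, 20 had a log2 fold change above 0, and the median was 0.12. The Notch ligand gene jag2a rose from 1.999 ± 0.992 CPM in WT (SD, n = 8) to 6.95 ± 2.12 in ASIP (SD, n = 6), which gave 1.80 on the log2 scale (SE 0.42) at an adjusted p of 0.0298 in edgeR. SOX9 (ENSDARG00000043923), a transcription factor gene of intestinal progenitor and secretory cells in mice, fell from 36.1 ± 8.86 CPM in WT (SD, n = 8) to 14.7 ± 4.19 in ASIP (SD, n = 6), which gave -1.28 on the log2 scale (SE 0.22) at an adjusted p of 0.00544. Both calls also held without WT H replicates 6 and 7, with adjusted p of 0.0101 and 0.00656.

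None of the lists for other cell types had a gene that passed the genotype test over all libraries, while slc2a2, krt8, LMOD1 (ENSDARG00000077261) and acta2 passed it without WT H replicates 6 and 7. Of 20 tested brush border genes 18 had a log2 fold change above 0, with a median of 0.61, and slc2a2 and ANPEP (ENSDARG00000097285) had the smallest p-values, at 1.11 (adjusted p = 0.141 in edgeR) and 0.84 (0.347). Without WT H replicates 6 and 7, slc2a2 stood at 0.76 (adjusted p = 0.00969) and the median was 0.21. Of 18 general epithelial genes 10 were above 0, with a median of 0.089, and krt8 and epcam stood at 1.30 (adjusted p = 0.0785) and -1.88 (0.181), and without those libraries at 1.11 (0.0319) and -0.36 (0.641). All 16 tested ovary and oocyte genes were below 0, with a median of -3.22, and buc and bmp15 stood at -3.09 (adjusted p = 0.249) and -2.49 (0.257). Without those libraries they stood at -1.21 (0.643) and -0.62 (0.743), and the median was -1.23. The medians of the other lists were 0.060 for exocrine pancreas, 0.62 for liver, -0.41 for smooth muscle, 0.24 for enteroendocrine cells and 0.026 for skin and pharynx. In smooth muscle, LMOD1 (ENSDARG00000077261) and acta2, the latter named after its values were seen, stood at -1.06 (adjusted p = 0.0352) and -0.89 (0.0475) without those libraries. Over all libraries, the genes with the smallest p-values in these lists were ela2 and ela2l (adjusted p = 0.527 and 0.759), hp and fabp10a (0.268 and 0.285), LMOD1 (ENSDARG00000077261) and MYLK (ENSDARG00000034801) (0.208 and 0.22), vipb and PYY (0.297 and 0.421), and ppl and PKP3 (0.236 and 0.305). The part of these differences in tissue makeup in the results above was not tested.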

How the data were processed

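Gene counts, as deposited by the authors, are whole numbers of reads and were not normalized. The authors also deposited FPKM values, which equal those counts over gene length and column total, and they served only to compare levels between genes. The submitters' processing notes name FastQC, STAR 2.7.3a (aligner), featureCounts 1.6.3 (counter) and edgeR, and give 3 genome builds (GRCm38.p6, mm10, GRCz11), not saying which served for what. The kit is stranded per the labels' protocols, but how strand entered the counting is not stated there. Total counts of 9847910 to 14091791 per library set the precision, and low mucin counts carry large counting error.

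Counts were tested with edgeR 4.0.16 in R 4.3.3 (filterByExpr, TMM, 1 mean per group over 14 libraries, glmQLFit, glmQLFTest), with Benjamini-Hochberg adjustment over all 18619 genes and a threshold of 0.05. The SE is the absolute log2 fold change divided by the square root of F. Log2 CPM used a prior count of 2. Alternatives were DESeq2 1.42.0, voom with sample quality weights (limma 3.58.1), RLE scaling, no filter, each library left out, WT H replicates 6 and 7 left out, and each letter alone. The fit was tested on simulated data. The labels do not say that libraries are separate fish, so p-values measure only how these samples vary, in part perhaps for technical reasons.

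The members and gene lists were chosen with earlier results of these data known. Symbols came from the supplied name table, by human-style symbol where no zebrafish one matched, and chromosomes from RefSeq (GRCz12tu). The rule for names covers every member, up to 4 passing genes per list or the 2 with the smallest p, and the 5 genes most like agr2. The 2 with the smallest p are named for genotype over M and H only. For muc2.1 it could not be applied.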

Additional observations from a re-analysis of the deposited data

Results flagged for a closer look

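In WT M replicate 3, muc5.3 was at 21.8 CPM, far from the other 3 libraries of its group, of which the nearest was at 2.15 CPM. The gap was 0.901 of the group's range. Of 18 groups of 4 libraries examined, this was the only one with such a gap. For normally distributed values, chance gives one in about 1 of 20 groups. This rate need not hold for muc5.3, which had 0 counts in WT M replicates 1 and 2. In WT H it had 142 CPM in replicate 7 against 24.7 in replicate 6, a gap too small to be flagged. The ASIP groups, of 3 libraries each, were not examined in this way.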

How the results depend on the processing

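Of 689 gene values recomputed over 36 results, 621 kept their direction and side of the threshold, 42 changed sign, 26 passed the threshold only in an alternative and 0 lost a call, since none of the 9 genes was called over all libraries. The number of the 9 called for genotype over M and H was 4 by DESeq2 (muc5.1 among them), 4 by voom and 3 without WT H replicates 6 and 7, against 0. Within M it was 3 by voom (muc5.1 and muc5.2 among them), 1 without those libraries and 1 on the M libraries alone. Within H it was 2 by DESeq2 and 3 by voom, and 0 of 8 tested on the H libraries alone. Over all genes, the calls for genotype over M and H were 784, and 1772 by DESeq2, 2453 by voom and 1474 without WT H replicates 6 and 7. Within M they were 178, against 593, 1555 and 722, and 742 on the M libraries alone. Within H they were 214, against 2144, 902 and 372, and 11 on the H libraries alone. DESeq2 called 24 genes for the interaction and 344 for H against M, against 0 and 0.

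Signs changed mostly for the mucins. By voom, muc5.3 stood at 2.498 over M and H and 0.34 within M, and within H muc5.1, muc5.2 and muc5.3 stood at 2.01, 1.19 and 4.66. Without WT H replicates 6 and 7, muc5.3 stood at 5.45 over M and H, and within H the 3 mucins stood at 2.61, 3.29 and 11.36, values that depend on the prior count since WT H replicates 5 and 8 had 0 counts of muc5.2 and muc5.3. For H against M, muc5.1 and muc5.3 stood at -0.44 and -0.78 by voom and, without WT H replicates 6 and 7, at -1.04 and -3.21, with stard10 at -0.020. The causes were not tested.

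Leaving out each library in turn, 0 to 3 of the 9 were called for genotype over M and H (3 without WT H replicate 6, 1 without WT H replicate 5), 0 to 1 within M and 0 within H. Over all genes this gave 483 to 1435 calls (most without WT H replicate 6, and 483 to 520 without ASIP M replicate 9, 10 or 11 or ASIP H replicate 16), 63 to 486 within M, 77 to 1034 within H (most without WT H replicate 5), 0 for the interaction and 0 to 173 for H against M (most without WT H replicate 5). Among genes with a change of sign, agr2 ran from -0.15 to 0.43 over M and H, from -0.29 to 0.068 within M, from -0.19 to 0.97 within H and from -0.43 to 0.12 for H against M. Muc5.3 ran from -6.23 to 1.001, from -6.88 to 2.60, from -11.99 to 1.81 and from -2.93 to 5.94 in the same order. Within M spdef ran from -0.14 to 0.097. For H against M, galnt12 ran from -0.093 to 0.045, muc5.2 from -1.03 to 0.77 and stard10 from -0.15 to 0.19. Muc5.2 was under the filter on the H libraries alone and without WT M replicate 1, 2 or 4.

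No paired analysis was possible because the groups share no replicate numbers. Depth limits muc5.1 and muc5.2, which had 422 and 60 counts in all.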
